A study of Mus musculus with 36 samples.

Results

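The 10 genes described here carry fatty acids inside cells or across their membrane: Fabp1, Fabp2, Fabp4, Fabp5, Fabp7, Cd36, Slc27a1, Slc27a2, Slc27a4 and Slc27a5. They were taken by name from the 56748 genes of the expression table, and all 10 were found as protein-coding genes. The set was chosen by a measured value, the strong diet dependence of Fabp5 in liver, so the difference between diets in liver is given below as a description without a test. On mm39, Fabp5 lies on chromosome 3 at 10077608-10081667 and Fabp4 on the same chromosome at 10269148-10273636, Fabp7 on chromosome 10 at 57660977-57664546, Cd36 on chromosome 5 at 17986688-18093799 and Fabp1 on chromosome 6 at 71176811-71182007. Levels are read fragments per gene, scaled to gene length and library size (FPKM), given per mouse or as mean ± SD, and log2 differences were taken on log2(FPKM + 1) with their standard error (SE).

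RNA was sequenced from visceral white adipose tissue (visWAT, the epididymal depot) and liver of 18 male mice on a C57BL/6J background, 1 library per tissue and mouse with no pooling, so 36 libraries in 8 groups. Mlkl Adi-KO mice carried loxP-flanked Mlkl and Adipo-Cre, which is active in mature adipocytes, so their other cells keep the gene. WT mice were littermates with the same loxP-flanked Mlkl and no Cre, so all animals shared the floxed allele. They received normal chow diet (NCD, 4 mice per genotype) or high-fat diet (HFD, 5 mice per genotype) for 16 weeks, and the study asked what adipocyte Mlkl does under HFD.

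Each library held 20875463 to 30322171 reads on genes. Mlkl, the deleted gene, was at 1.96 to 2.72 FPKM in visWAT of Mlkl Adi-KO mice and at 3.91 to 6.28 FPKM in WT mice, except for WT NCD mouse 182 at 2.29 FPKM, which went against its label. Liver Mlkl was at 1.62 to 4.19 FPKM over both genotypes, where no deletion is made. Another WT NCD visWAT library, mouse 183, held 17.5% of its reads on seminal vesicle genes. Where mouse 182 or 183 decided the value of a member, the value without it is given beside it. The 7 adipocyte markers summed to 1939.8 to 17908 FPKM in visWAT and to 3.32 to 65.2 FPKM in liver, and the 8 hepatocyte markers to 41654 to 66906 FPKM in liver. In these bulk samples, fewer cells of a type and less RNA per cell cannot be told apart.

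Long-chain fatty acids are poorly soluble in water and are handed between lipoprotein lipase at the vessel wall, the membrane and the cytosol by proteins. CD36 is a membrane glycoprotein that promotes uptake. The Slc27a genes encode membrane-bound acyl-CoA synthetases, which trap an incoming fatty acid by activating it, and Slc27a2 and Slc27a5 are known for their activity on very long-chain fatty acids and bile acids in hepatocytes. The small cytosolic fatty acid binding proteins (Fabp genes) are named after the tissue in which each is abundant, with Fabp1 for liver, Fabp2 for intestine, Fabp4 for adipocytes, Fabp5 for epidermis and Fabp7 for brain. Several of them, Fabp1 and Fabp4 above all, are textbook targets of the nuclear receptors called PPARs, which bind paired AGGTCA-like elements as a dimer with RXR.

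Of the 10 genes, 7 matched an entry among RefSeq promoter sequences (GRCm38.p6) by symbol, while Fabp4, Fabp5 and Slc27a5 did not. The 250 bases before the annotated start were searched on both strands for AGGNCANAGGNCA (a direct repeat spaced by 1 base), for AGGTCA and for TATAAA, where a match to the repeat can overlap an AGGTCA. The repeat was in 111 of 32851 such windows (0.338%), AGGTCA in 14.0% and TATAAA in 12.4%. Fabp1, the member with the highest level in any library, held the only match to the repeat among the 7, at position -67 counted back from the start, on the minus strand. Its window, on the plus strand of chromosome 6, is shown because it holds all 3 searched motifs, with the repeat in capitals. AGGTCA matched at -67 and -9 on the minus strand and TATAAA at -30.
Fabp1, chr6:71199629-71199878: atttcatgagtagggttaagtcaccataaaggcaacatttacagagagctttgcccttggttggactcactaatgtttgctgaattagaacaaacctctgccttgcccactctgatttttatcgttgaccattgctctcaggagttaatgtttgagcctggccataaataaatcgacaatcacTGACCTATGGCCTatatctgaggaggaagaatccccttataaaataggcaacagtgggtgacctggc
A single AGGTCA lay on the minus strand at -171 in Fabp7, -228 in Cd36 and -220 in Slc27a2, and none of these motifs was in the windows of Fabp2, Slc27a1 and Slc27a4. The window of Fabp7, which was lowest in NCD visWAT, is shown for comparison.
Fabp7, chr10:57784673-57784922: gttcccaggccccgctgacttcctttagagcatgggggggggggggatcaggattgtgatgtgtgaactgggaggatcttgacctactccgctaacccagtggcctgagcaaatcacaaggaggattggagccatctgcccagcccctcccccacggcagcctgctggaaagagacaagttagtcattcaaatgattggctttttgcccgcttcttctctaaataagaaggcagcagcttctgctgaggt
These matches describe the letters of the windows only.

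The members split into an adipose set, a liver set and 3 genes found in both tissues. Fabp4, Cd36 and Slc27a1 were higher in visWAT than in liver in each of the 4 combinations of genotype and diet, and Fabp1, Fabp2, Slc27a2 and Slc27a5 were higher in liver in each, all called in every combination (limma, Benjamini-Hochberg adjusted p under 0.05 over all genes tested). In all, 8 of 10 members were called in WT NCD mice against 65.5% of all genes tested, 9 of 10 in WT HFD mice against 84.6%, 10 of 10 in Mlkl Adi-KO NCD mice against 77.9%, and 9 of 10 in Mlkl Adi-KO HFD mice against 80.3%. These shares of called members lay near those of all genes, and the counts include Fabp5, whose liver levels chose the set. Only genes with a mean of at least 0.5 FPKM over the libraries compared were tested. In WT mice Fabp2, Slc27a2 and Slc27a5 reached it through liver alone, with visWAT means of 0.0474 to 0.382 FPKM. So did Fabp2 and Slc27a5 in Mlkl Adi-KO NCD mice, and Fabp7 under NCD in each genotype, at 0.154 and 0.0692 FPKM in visWAT. In Mlkl Adi-KO HFD mice, the visWAT means of Fabp2, Slc27a2 and Slc27a5 passed 0.5 FPKM only through mouse 156. Their visWAT medians there were 0, 0.0221 and 0.0674 FPKM. Slc27a2 in Mlkl Adi-KO NCD visWAT did so only through mouse 179, at 1.91 FPKM against 0.157 to 0.377 FPKM in the others. Apart from that 1 library, these too reached the limit through liver alone. Such genes had to differ, so their calls, which the counts include, support nothing. The median over the members was -0.67, -0.09, -1.05 and -0.11 on the log2 scale, visWAT minus liver, in the same order, and the median over all genes lay between -0.04 and -0.01.

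**Figure D1:**
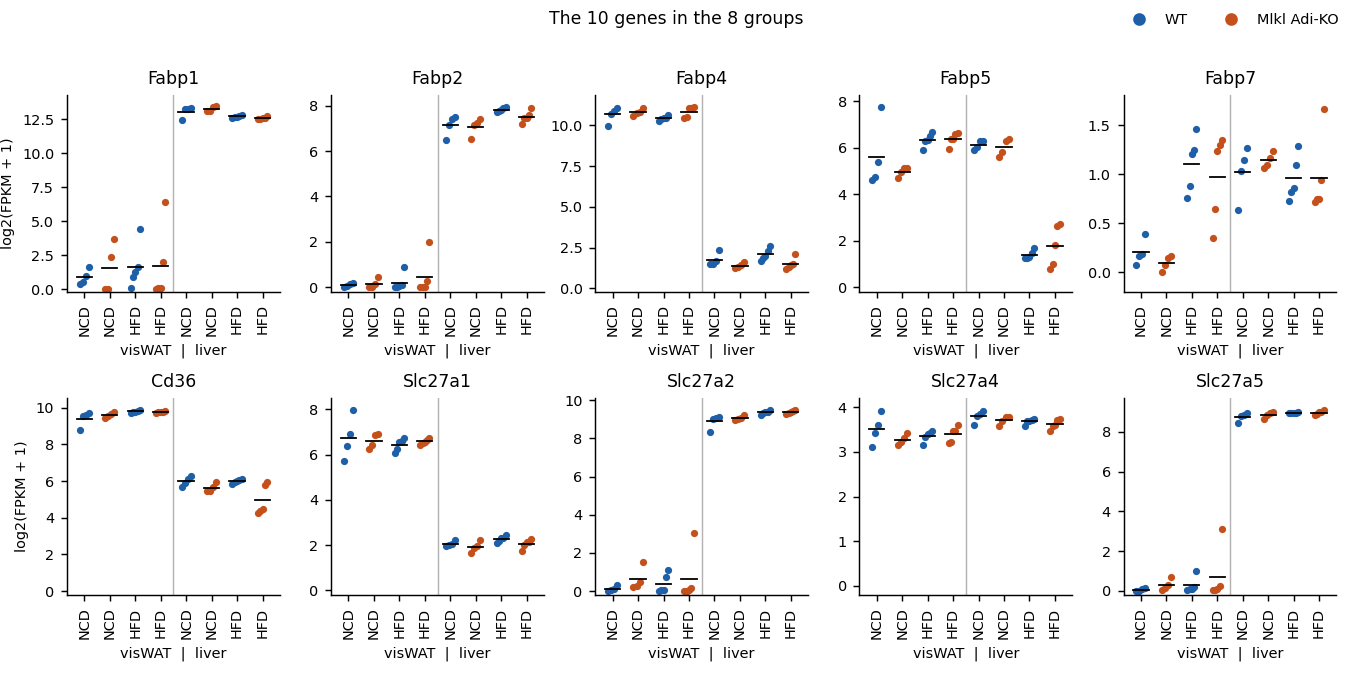
Levels of the 10 genes as log2(FPKM + 1), one panel per gene with its own vertical axis, 1 point per mouse and a line at the group mean, with visWAT left and liver right of the grey line and WT in blue and Mlkl Adi-KO in orange. Fabp4, Cd36 and Slc27a1 sit high in visWAT, Fabp1, Fabp2, Slc27a2 and Slc27a5 sit high in liver, and Fabp5 in liver drops from 48.2 to 82.3 FPKM under NCD to 0.696 to 5.60 FPKM under HFD.

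Among the adipose set, Fabp4, the adipocyte carrier, was at 1003 to 2283 FPKM in visWAT and at 1.33 to 5.14 FPKM in liver, and no library of one tissue came near those of the other. In WT NCD mice its log2 difference between tissues was 8.91 (SE 0.28, adjusted p = 2.5e-08), and it lay between 8.35 and 9.41 in the other combinations. Cd36, the uptake receptor, was at 435 to 944 FPKM in visWAT and at 18 to 76.4 FPKM in liver, so that liver held it at a clear level too. Its log2 difference between tissues ran from 3.41 (SE 0.23) in WT NCD mice to 4.81 (SE 0.33) in Mlkl Adi-KO HFD mice. Slc27a1, the transporter of muscle and fat, was at 51.0 to 251 FPKM in visWAT and at 2.18 to 4.50 FPKM in liver.

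Among the liver set, Fabp1, the liver carrier, was at 5485 to 11177 FPKM in liver, with log2 differences between tissues from -12.20 (SE 0.32) in WT NCD mice to -10.91 (SE 1.08) in Mlkl Adi-KO HFD mice. Slc27a2, at 327 to 721 FPKM in liver, and Slc27a5, at 347 to 552 FPKM, followed it in level. Fabp2 was at 88.4 to 247 FPKM in liver although it is named after the intestine. Markers of intestinal epithelium were low there, with the 5 genes summing to at most 2.21 FPKM in liver, in WT HFD mouse 155, of which Vil1 made 2.16. Alpi, Cdx2 and Lct reached at most 0.0236 FPKM each in liver. The part of such cells in the Fabp2 values was not tested.

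Slc27a4, a transporter with a broad tissue range, was at 7.66 to 14.1 FPKM in visWAT and at 10.1 to 14.2 FPKM in liver. Its difference between tissues was small and its direction depended on the scaling: visWAT was lower by -0.33 (SE 0.06) on the log2 scale in WT HFD mice as deposited and higher by 0.68 once each library was rescaled to the same sum (TPM scale). That rescaling moved the median over all genes by 0.51 to 0.84 in the 4 comparisons between tissues, so Slc27a4 had no stable direction, while the adipose and the liver set kept theirs. Fabp7, the brain carrier, was at 0 to 1.75 FPKM in visWAT and at 0.555 to 2.17 FPKM in liver, on at most 79 reads per library.

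Fabp5, the epidermal carrier, was compared between tissues as a description, since the liver levels that chose this set enter the comparison. Under NCD, 7 of 8 mice had more Fabp5 in liver than in visWAT, by 1.44- to 3.32-fold, and the exception was mouse 182, with 3.63-fold more in visWAT. Under HFD, 10 of 10 mice had more in visWAT, by 11.7-fold in mouse 156 to 143-fold in mouse 153. In Mlkl Adi-KO NCD mice the log2 difference, visWAT minus liver, was -1.05 (SE 0.18), and in WT NCD mice it was -0.51 (SE 0.63). Without the visWAT and liver libraries of mouse 182 the WT value was -1.30, and without mice 182 and 183 it was -1.11. On the TPM scale the NCD difference came to -0.02 with the deletion and to 0.13 without it, so the order under NCD rests on the scaling. Under HFD it was 4.96 (SE 0.13) in WT and 4.61 (SE 0.37) in Mlkl Adi-KO mice, and the lowest value over the alternatives run was 4.29.

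**Figure D2:**
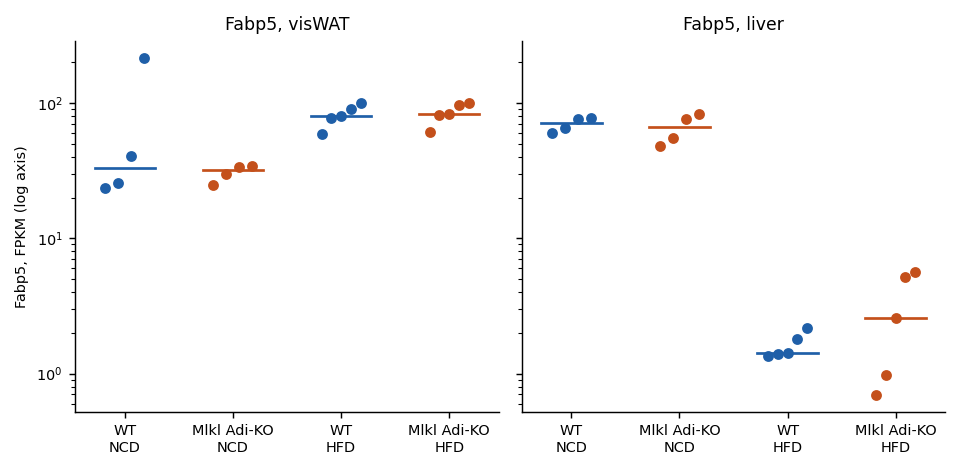
Fabp5 in FPKM on a logarithmic axis in visWAT (left) and liver (right), 1 point per mouse and a line at the group median. Liver NCD mice lie at 48.2 to 82.3 FPKM and liver HFD mice at 0.696 to 5.60 FPKM, while in visWAT HFD mice lie at 59.3 to 101 FPKM and NCD mice at 23.5 to 40.4 FPKM apart from mouse 182 at 217 FPKM.

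In liver, Fabp5 was at 77.0, 64.9, 59.8 and 76.8 FPKM in the WT NCD mice and at 2.18, 1.42, 1.39, 1.35 and 1.79 FPKM in the WT HFD mice. In Mlkl Adi-KO mice it was at 48.2, 82.3, 76.8 and 55.2 FPKM under NCD and at 0.977, 2.56, 0.696, 5.17 and 5.60 FPKM under HFD. Every HFD liver lay below every NCD liver, and the HFD livers of Mlkl Adi-KO mice were more spread than those of WT mice. The group means were 69.6 ± 8.65 and 1.63 ± 0.356 FPKM in WT, a 42.8-fold difference (log2 difference -4.75, SE 0.11). They were 65.7 ± 16.5 and 3.0 ± 2.30 FPKM in Mlkl Adi-KO mice, a 21.9-fold difference (log2 difference -4.24, SE 0.41). The HFD values rest on 40 to 327 reads per library and the NCD values on 3119 to 5111. The only other gene whose symbol begins with Fabp5, the processed pseudogene Fabp5l2, was at 0 to 0.153 FPKM over all 36 libraries. Copies under other symbols were not searched for.

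The other members differed far less between diets in liver, and these values are descriptions as well. In WT mice the ranges of the diet groups did not overlap for 3 of 10 members, against 24.8% of all genes tested: Fabp5 lower, and Fabp2 and Slc27a2 higher under HFD. In Mlkl Adi-KO mice they did not overlap for 3 of 10, against 21.5% of all genes: Fabp5 and Fabp1 lower, and Slc27a2 higher. Both counts include Fabp5, whose liver levels chose the set, and both shares lay near those of all genes. The median log2 difference over the 10 was 0.10 in WT and 0.00 in Mlkl Adi-KO mice, and over all genes -0.00 and 0.00.

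Fabp1 in liver was at 9905, 9689, 5485 and 10509 FPKM in WT NCD mice and at 8787, 8725, 11177 and 10786 FPKM in Mlkl Adi-KO NCD mice. Under HFD it was at 7407, 6120.0, 6646, 7027 and 6655 FPKM in WT and at 5950.1, 6283, 5992, 6834 and 6225 FPKM in Mlkl Adi-KO mice. Mouse 182 alone among NCD mice fell below the HFD range. Slc27a2 was at 562, 530.1, 327 and 523 FPKM in WT NCD mice against 589 to 721 FPKM in WT HFD mice, and at 505 to 589 FPKM against 620.2 to 719 FPKM in Mlkl Adi-KO mice. Fabp2 was at 88.4 to 182 FPKM in WT NCD and 209 to 247 FPKM in WT HFD mice, and in Mlkl Adi-KO mice at 91.5 to 169 and 146 to 239 FPKM, where the ranges overlapped. Slc27a5 moved by 0.21 (SE 0.09) in WT and 0.10 (SE 0.09) in Mlkl Adi-KO mice on the log2 scale, and Slc27a4 by -0.11 (SE 0.07) and -0.10 (SE 0.07). Cd36 was level in WT mice, with a log2 difference of -0.01 (SE 0.11), and -0.66 (SE 0.37) in Mlkl Adi-KO mice.

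Whether the fall of hepatic Fabp5 ran along its chromosome was looked at in the 250 kb on each side. The gene lies on the plus strand in a cluster of related carriers. The nearest end of Fabp4, which lies on the minus strand, is 187481 bases further on. Fabp4 was at 1.40 to 4.08 FPKM in NCD livers and at 1.33 to 5.14 FPKM in HFD livers. Pag1, an adaptor protein gene 178869 bases upstream, was at 0.837 to 1.54 FPKM in NCD and at 0.849 to 1.47 FPKM in HFD livers, and Myef2l was at 0.714 to 1.60 and 0.685 to 1.19 FPKM. Pmp2 and Fabp9, further carriers of the cluster, were at 0 in all 18 livers. Besides Fabp5, only Fabp12 had ranges that did not overlap in a genotype, in WT mice at 0.0217 to 0.134 FPKM under NCD and 0 under HFD.

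In visWAT, which the choice of the set did not use, Fabp5 was higher under HFD in Mlkl Adi-KO mice. In WT mice 1 of 7 members tested was called against 37.8% of 14161 genes, with a median log2 difference over the 7 of 0.39 and over all genes of -0.01. In Mlkl Adi-KO mice 2 of 9 members tested were called against 43.7% of 14026 genes, with a median of 0.18 and over all genes of 0.01. The call in WT mice and 1 of the 2 in Mlkl Adi-KO mice were those of Fabp7, which was tested only because it was high under HFD, so these counts support nothing about the members. A gene was tested when its mean over the libraries of the comparison reached 0.5 FPKM, which Fabp2 did in neither genotype and Slc27a2 and Slc27a5 did in Mlkl Adi-KO mice alone. Slc27a2 and Slc27a5 did so only through mouse 156, at 7.19 and 7.80 FPKM, against at most 0.124 and 0.179 FPKM in the other Mlkl Adi-KO HFD mice.

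Fabp5 in visWAT was at 33.6, 24.8, 29.9 and 34.4 FPKM in Mlkl Adi-KO NCD mice and at 96.9, 81.4, 99.5, 60.6 and 82.8 FPKM in Mlkl Adi-KO HFD mice. The ranges were apart, the log2 difference was 1.42 (SE 0.15, limma adjusted p = 0.00035), and a two-sided exact permutation test over mice gave p = 0.0159, the smallest that 5 against 4 mice allow. In WT mice it was at 25.6, 40.4, 217 and 23.5 FPKM under NCD and at 59.3, 101, 90.0, 80.9 and 77.3 FPKM under HFD. The log2 difference was 0.73 (SE 0.58, limma adjusted p = 0.35), and mouse 182 alone set this result: without it the difference was 1.44 (adjusted p = 0.00089), and without mice 182 and 183 it was 1.30 (adjusted p = 0.0022). So the Fabp5 difference between diets ran up in visWAT and down in liver of the same Mlkl Adi-KO mice, and of the WT mice apart from mouse 182. The interaction of genotype and diet for Fabp5 in visWAT was 0.69 (SE 0.63, adjusted p = 0.62), and -0.02 without mouse 182.

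Fabp7 in visWAT was at 0.135, 0.0514, 0.118 and 0.313 FPKM in WT NCD mice and at 0.686, 1.32, 1.37, 1.75 and 0.842 FPKM in WT HFD mice. In Mlkl Adi-KO mice it was at 0, 0.104, 0.118 and 0.0552 FPKM under NCD and at 1.46, 1.36, 1.55, 0.570 and 0.274 FPKM under HFD. Diet groups did not overlap in either genotype, and the log2 differences were 0.91 (SE 0.15) in WT and 0.88 (SE 0.21) in Mlkl Adi-KO mice. Fabp7 reached the 0.5 FPKM limit through the HFD group alone and so had to differ, which makes these values a description without a p. They rest on 0 to 12 reads under NCD and 11 to 79 under HFD.

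Macrophage genes moved with diet in the same libraries: the 10 markers, with Lyz2, Cd68 and Gpnmb among them, summed to 180.0 to 414 FPKM in NCD visWAT and to 656 to 2599 FPKM in HFD visWAT, none of them at 0 in any library. The lowest sums under HFD, 732 and 656 FPKM, were those of mice 156 and 157, which also had the lowest Fabp7 of the HFD mice. Their Fabp5 was at 60.6 and 82.8 FPKM, where the HFD mice ran from 59.3 to 101 FPKM. NCD mouse 182, with the highest Fabp5 at 217 FPKM, had a macrophage sum of 221 FPKM. The 7 adipocyte markers summed to 6361 to 17908 FPKM under NCD and 1939.8 to 7558 FPKM under HFD. In WT mice the median of the sum went from 13180 to 2514 FPKM, and that of Adipoq, among the 7, from 1404 to 961 FPKM. In Mlkl Adi-KO mice the list did not move as a whole. There the median of the sum went from 15083 to 5244 FPKM, while that of Adipoq went from 1667 to 1828 FPKM. Myelinating and glial markers, which Fabp7 could accompany, summed to 3.64 to 6.09 FPKM under NCD and 5.25 to 6.92 FPKM under HFD, with the glial factor Sox10 at most 0.169 FPKM. In each visWAT group only 1 of the 5 had a mean of at least 1 FPKM. Sox10 went the other way, with medians of 0.122 and 0.0823 FPKM under NCD and 0.0488 and 0.0612 FPKM under HFD (WT, Mlkl Adi-KO). The part of these cells in the Fabp5 and Fabp7 differences was not tested.

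Fabp4, Cd36 and Slc27a1 were not called between diets in visWAT, though Cd36 was under 1 alternative in each genotype and Fabp4 under 2 in WT mice. Fabp4 had a log2 difference of -0.24 (SE 0.22, adjusted p = 0.44) in WT mice, which turned to 0.24 on the TPM scale, and of 0.04 (SE 0.19, adjusted p = 0.89) in Mlkl Adi-KO mice. Without the visWAT library of mouse 183, its WT difference was -0.47 (adjusted p = 0.034). Cd36 was at 830.5, 774, 746 and 435 FPKM in WT NCD mice and at 856, 849, 944, 915 and 875 FPKM in WT HFD mice. All 5 HFD mice lay above all 4 NCD mice, with a log2 difference of 0.39 (SE 0.19, limma adjusted p = 0.14) and an exact permutation p of 0.0159. Without mouse 183 the difference was 0.18 (adjusted p = 0.22), without mice 182 and 183 it was 0.15 (adjusted p = 0.25), and with all 4 groups in 1 fit the difference of 0.39 was called (adjusted p = 0.040). In Mlkl Adi-KO mice Cd36 was at 693 to 870.4 FPKM under NCD and 849.8 to 901 FPKM under HFD (log2 difference 0.18, SE 0.09, limma adjusted p = 0.13), and DESeq2 called it (0.16, adjusted p = 0.046). Slc27a1 differed by -0.30 (SE 0.39, adjusted p = 0.58) and -0.02 (SE 0.15, adjusted p = 0.91), and Slc27a4 by -0.16 (SE 0.15, adjusted p = 0.41) and 0.12 (SE 0.10, adjusted p = 0.34), in WT and Mlkl Adi-KO mice in that order. Neither WT value kept its sign: Slc27a1 was at 0.11 (adjusted p = 0.76) without mouse 182 and 0.17 on the TPM scale, and Slc27a4 at 0.08 (adjusted p = 0.59) without mice 182 and 183 and 0.27 on the TPM scale. The TPM scale moved the median over all genes by 0.35 in the WT comparison, and by -0.01 in that of Mlkl Adi-KO mice, and changed neither count of called members.

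**Figure D3:**
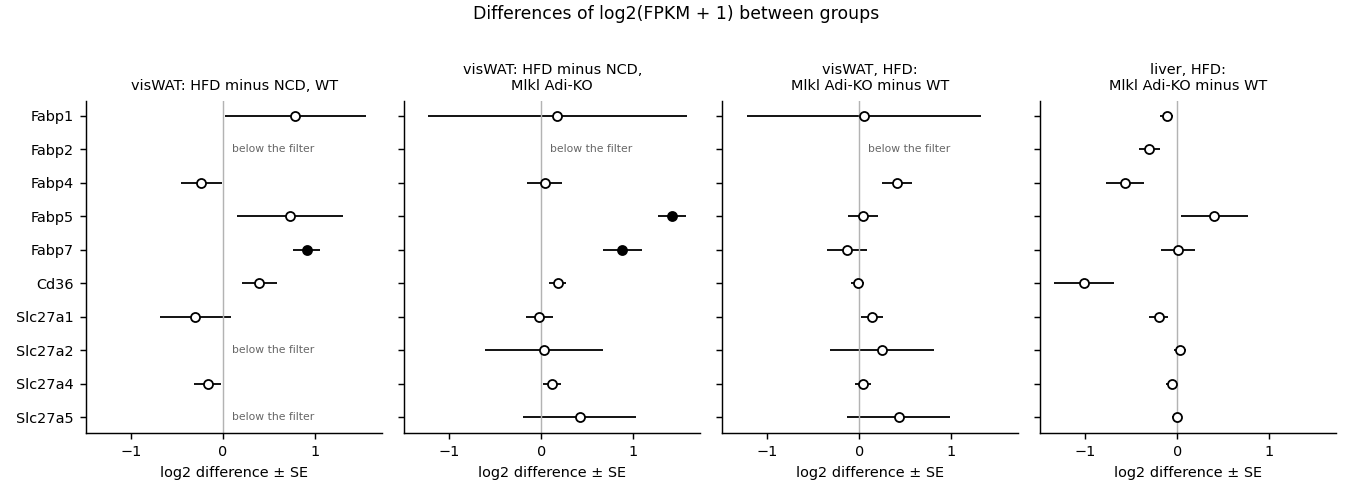
Log2 differences of the members on log2(FPKM + 1) with bars of 1 SE, HFD minus NCD in visWAT of each genotype and Mlkl Adi-KO minus WT under HFD in visWAT and liver, with filled points for an adjusted p under 0.05. Filled points are Fabp7, tested only because it was high under HFD, at 0.91 in WT visWAT, and Fabp5 at 1.42 and Fabp7 at 0.88 in Mlkl Adi-KO visWAT, and the lowest point is Cd36 at -1.01 in HFD liver.

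Between genotypes, no member was called in either tissue on either diet. Under HFD this was 0 of 9 members tested in visWAT, against 0.0215% of 13963 genes (3 genes), and 0 of 10 in liver, against 0.197% of 13215 genes (26 genes). Under NCD it was 0 of 6 in visWAT, against 0% of 14063 genes, and 0 of 10 in liver, against 0.00758% of 13193 genes. At an unadjusted p under 0.05 the same limma fits held 3003, 1664, 528 and 574 genes in that order. The interaction of genotype and diet called 0 of 9 members in visWAT, against 0% of 14136 genes, and 0 of 10 in liver, against 0.0151% of 13248 genes, with 1867 and 811 genes at an unadjusted p under 0.05. edgeR and DESeq2 on recovered reads called 0 members in each of these comparisons too. In visWAT, Slc27a2 and Slc27a5 were among the 9 tested under HFD and in the interaction only through the library of mouse 156.

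The largest member difference between genotypes in HFD liver was that of Cd36. It was at 67.1, 55.3, 60.5, 64.8 and 64.2 FPKM in WT HFD mice and at 21.7, 61.1, 54.4, 19.5 and 18 FPKM in Mlkl Adi-KO HFD mice, which fell into 3 low livers (mice 151, 156 and 157) and 2 within or near the WT range (mice 152 and 153). The means were 62.4 ± 4.61 and 34.9 ± 21.0 FPKM, the log2 difference was -1.01 (SE 0.33, limma adjusted p = 0.27), and the exact permutation p, not adjusted over genes, was 0.0238. Under NCD the Cd36 values were 68.1, 50.2, 76.4 and 59.1 FPKM in WT and 42.5, 49.8, 43.8 and 59.9 FPKM in Mlkl Adi-KO mice, with overlapping ranges (log2 difference -0.36, SE 0.15, limma adjusted p = 0.996, exact permutation p = 0.114). The interaction was -0.65 (SE 0.42, adjusted p = 0.94).

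The same 3 mice stood apart in other genes. Cidec, a lipid droplet protein gene and PPAR target, was at 13.8, 16.4 and 6.55 FPKM in the livers of mice 151, 156 and 157, at 63.3 and 78.0 FPKM in those of mice 152 and 153, and at 59.1 to 96.0 FPKM in WT HFD livers. Fabp4 in their visWAT was at 2283, 2150.1 and 2123 FPKM, against 1401 and 1437 FPKM in mice 152 and 153 and 1248 to 1604 FPKM in WT HFD mice. Hepatic Fabp5 divided these mice otherwise, with mice 156 and 157 at 5.17 and 5.60 FPKM and mouse 151 at 0.977 FPKM. These mice were picked out by their values, so no test was made between them.

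**Figure D4:**
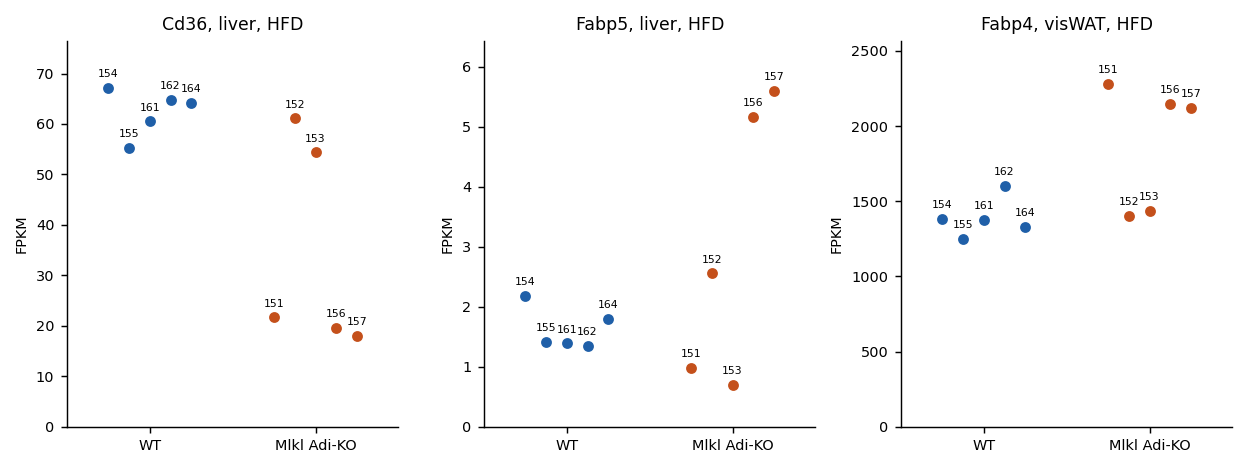
Values in FPKM of the HFD mice, each point marked with the number of its mouse, for Cd36 in liver, Fabp5 in liver and Fabp4 in visWAT, with WT in blue and Mlkl Adi-KO in orange. Mice 151, 156 and 157 have the lowest hepatic Cd36, 18 to 21.7 FPKM, and the highest visWAT Fabp4, 2123 to 2283 FPKM.

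Fabp4 in HFD visWAT had a log2 difference of 0.41 (SE 0.16, limma adjusted p = 0.22, exact permutation p = 0.0476), with overlapping ranges. In the same libraries the adipocyte sum was 5244, 7558 and 6964 FPKM in mice 151, 156 and 157 and 1939.8 to 2793 FPKM in the other HFD mice of both genotypes, and its part in the Fabp4 values was not tested. In HFD liver, Fabp4 was at 3.82, 5.14, 2.58, 2.18 and 3.05 FPKM in WT and at 1.49, 3.31, 1.78, 1.33 and 1.76 FPKM in Mlkl Adi-KO mice (log2 difference -0.57, SE 0.20, limma adjusted p = 0.30, exact permutation p = 0.0476). Hepatic Fabp2 differed by -0.31 (SE 0.11, limma adjusted p = 0.31, exact permutation p = 0.0476), Fabp1 by -0.11 (SE 0.07, adjusted p = 0.56) and Fabp5 by 0.40 (SE 0.36, adjusted p = 0.70). The remaining members differed between genotypes in HFD liver by -0.20 for Slc27a1 to 0.03 for Slc27a2 on the log2 scale. Fabp5 in visWAT differed by 0.05 (SE 0.16, adjusted p = 0.88) under HFD, where its sign turned on the TPM scale (-0.06), and by -0.65 (SE 0.64, adjusted p = 0.92) under NCD. The NCD value rests on mouse 182, without which it was 0.07 (adjusted p = 0.95), and without mice 182 and 183 it was -0.08.

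The liver set was near 0 in most visWAT libraries and clearly present in few. Fabp1 had a median of 0.894 FPKM over the 18 visWAT libraries, but was at 83.8 FPKM in mouse 156, 20.8 FPKM in mouse 164 and 12.1 FPKM in mouse 199. In mouse 156, Slc27a5 was at 7.80, Slc27a2 at 7.19 and Fabp2 at 3.02 FPKM, whereas their medians over all visWAT libraries were 0.0803, 0.110 and 0.0295 FPKM. These libraries also held the most hepatocyte RNA by its markers: the 8 genes, with Alb and Apoa1 among them, summed to 779.6 FPKM in mouse 156, 106 in mouse 164 and 74.9 in mouse 199, and to 1.08 to 23.0 FPKM in the other 15. None of the 8 was at 0 in these 3 libraries.

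Relative to Alb in the same library, the visWAT of mouse 156 held Fabp1 at 18.2% and its liver at 20.3%, and mouse 199 had 23.8% and 26.3%. For Slc27a2 the ratios of mouse 156 were 1.56% and 2.14%, and for Slc27a5 1.70% and 1.64%. In mouse 164 the visWAT ratio of Fabp1, 39.1%, was above that of its liver, 25.7%. Over all 18 mice the Fabp1 ratio was 0% to 52.0% in visWAT and 11.7% to 29.5% in liver. Fabp1 and Alb stood in similar proportion in both tissues of mice 156 and 199, but Fabp2 in mouse 199 was at 0.704% and 0.362%. Slc27a2 in mouse 179 differed: it was at 1.91 FPKM on 220 reads, 23.1% of Alb against 1.13% in its liver, with a hepatocyte sum of 10.3 FPKM and the highest visWAT sums of the 7 epididymis markers, 14.1 FPKM, and of the 5 intestinal markers, 1.92 FPKM, of which Vil1 made 1.83. Mouse 154 departed likewise, with Slc27a2 at 0.676 FPKM, 16.9% of Alb against 2.67% in its liver, epididymis markers at 1.15 FPKM and intestinal ones at 0.865 FPKM. The part of hepatocyte, epididymis or intestinal cells in the liver-set values was not tested. The group means of these members in visWAT, such as Fabp1 at 17.4 ± 37.2 FPKM in Mlkl Adi-KO HFD mice, rest on such single libraries, and their tests between diets or genotypes compare them.

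**Figure D5:**
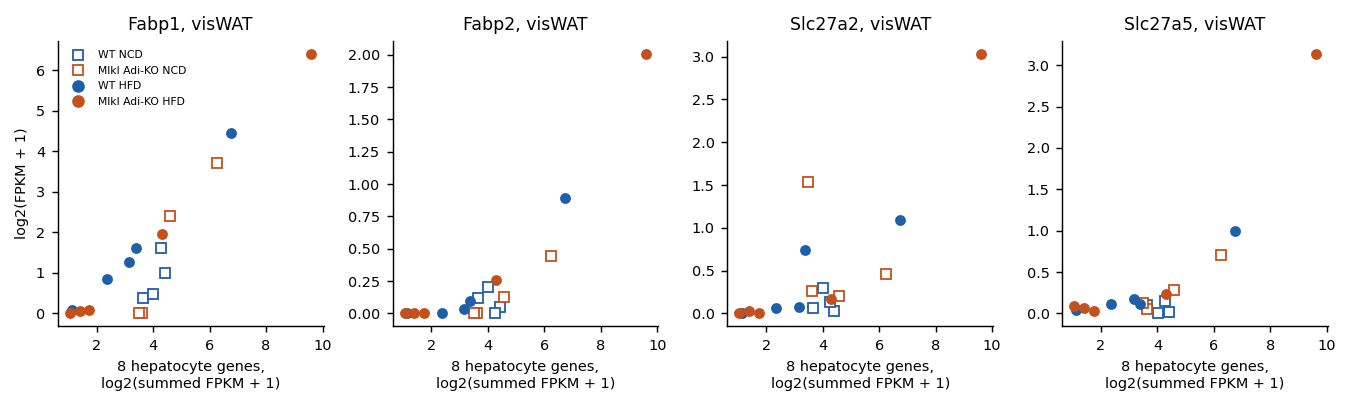
The 4 liver-set members in visWAT, each as log2(FPKM + 1), against the summed FPKM of 8 hepatocyte markers on the same scale, 1 point per visWAT library, with open squares for NCD, filled circles for HFD, WT in blue and Mlkl Adi-KO in orange. The highest point in every panel is mouse 156, with a hepatocyte sum of 779.6 FPKM, and the Slc27a2 point above the others at a low sum is mouse 179 at 1.91 FPKM.

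The other genes of fatty acid binding and uptake were followed as a list of 23, which held further carriers, lipoprotein lipase and its anchor, and the acyl-CoA synthetases of the Acsl family. In WT visWAT, 2 of the 16 tested were higher and 3 lower under HFD, beside 37.8% of all genes called, with a median log2 difference of -0.15. Ffar4, a fatty acid receptor, fell by 1.31 (SE 0.22, limma adjusted p = 0.0013) and Scp2, a sterol carrier, by 0.85 (SE 0.19, adjusted p = 0.0075), while Acsl5, which activates fatty acids, rose by 0.47 (SE 0.07, adjusted p = 0.00081) and Vldlr, a lipoprotein receptor, by 0.46 (SE 0.15, adjusted p = 0.040). In Mlkl Adi-KO visWAT, 4 of 16 were higher and 3 lower, beside 43.7% of all genes, with a median of -0.02. Ffar4 fell by 1.16 (SE 0.29), and Fabp3, the heart carrier, rose by 0.85 (SE 0.25), Slc27a3 by 0.55 (SE 0.11) and Acsl5 by 0.45 (SE 0.06).

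In liver, 3 of 15 genes of the list had higher and 6 lower ranges under HFD in WT mice, and 3 and 4 in Mlkl Adi-KO mice, beside 24.8% and 21.5% of all genes with ranges apart, again without a test. Those with the largest log2 differences were Lpl, lipoprotein lipase, at -2.82 (SE 0.41) in WT and -1.88 (SE 0.28) in Mlkl Adi-KO mice, Acsl5 at -1.15 (SE 0.10) and -1.14 (SE 0.12), and Dbi, the acyl-CoA binding protein, at -0.94 (SE 0.06) and -1.08 (SE 0.12). Among WT NCD livers, Lpl was at 39.3 FPKM in mouse 182 and at 8.80, 9.61 and 7.84 FPKM in the others. The liver of mouse 182 had a macrophage sum of 147 FPKM, against 45.0 to 55.2 FPKM in the others. Its part in the WT Lpl value was not tested. No gene of the list was called between genotypes or in the interaction in either tissue. Between tissues, 7 to 9 of the 16 or 17 tested were higher in visWAT and 7 to 8 lower, over the 4 combinations of genotype and diet, in which 65.5% to 84.6% of all genes were called. Cav1, the caveolar coat protein, was higher in visWAT by 7.01 to 7.68 on the log2 scale and Lpl by 5.29 to 7.93. Mfsd2a, a lysophospholipid transporter, was lower by -6.96 to -6.20.

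A list of 24 PPAR receptors and targets was followed because the nuclear receptors act on several members. In WT visWAT, 6 of 20 tested were higher and 6 lower under HFD, beside 37.8% of all genes called, with a median log2 difference of -0.13. In Mlkl Adi-KO visWAT they were 8 and 6 of 20, beside 43.7%, with a median of -0.07. Plin2, a lipid droplet coat, rose by 1.65 (SE 0.50, limma adjusted p = 0.028) and 1.63 (SE 0.26, adjusted p = 0.0015) in WT and Mlkl Adi-KO mice. Mogat1, an acyltransferase of triglyceride synthesis, fell by 2.25 (SE 0.18) and 1.76 (SE 0.29), Cidea fell by 1.97 (SE 0.67, adjusted p = 0.043) in WT mice, and Pdk4 rose by 0.87 (SE 0.21, adjusted p = 0.0096) in Mlkl Adi-KO mice.

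In liver, 6 of 23 PPAR genes had higher and 5 lower ranges under HFD in WT mice, beside 24.8% of all genes with ranges apart, and 3 and 5 in Mlkl Adi-KO mice, beside 21.5%. In WT mice the lipid droplet genes Cidea (3.05, SE 0.62), Plin4 (2.66, SE 0.21) and Cidec (2.63, SE 0.33) were higher, and Cyp4a14, a fatty acid hydroxylase, was lower (-2.34, SE 0.20). In Mlkl Adi-KO mice Cyp4a14 (-3.26, SE 0.52), Ehhadh (-1.97, SE 0.12), Cyp4a10 (-1.59, SE 0.30) and Pdk4 (-1.26, SE 0.25) were lower. No PPAR gene was called between genotypes or in the interaction, where the median over the 23 in HFD liver was -0.40 and over all genes 0.00. Between tissues 7 to 8 of 23 were higher in visWAT and 13 to 16 in liver, beside the same 65.5% to 84.6% of all genes called, with log2 differences, visWAT minus liver, of 4.28 to 7.36 for Cidec and of -8.89 to -6.86 for Cyp4a10, another fatty acid hydroxylase.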

How the data were processed

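Polyadenylated RNA of visWAT and liver was sequenced as 150 bp paired reads. Per the study's methods, the authors trimmed reads with Fastp, aligned them to mm39 with HISAT2 and counted them per gene with featureCounts 1.5.0-p3. The deposited FPKM values, made by the authors from these reads, were used for all levels and tests. Read counts per gene, deposited by the authors beside them, gave the depth and the reads behind a value, and the deposited gene lengths tied the 2 units together: 100% of FPKM values came out as whole reads within 0.01. The library size behind FPKM, divided by the gene-assigned reads, was 1.01 to 1.40 for visWAT libraries and 0.737 to 0.812 for liver libraries, so differences between tissues depend on this scaling. The authors' tables of fold changes, p-values and pathway enrichment were not used, nor were 72 columns of per-sample values that match no sample here.

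Groups came from the labels. Differences were fitted with limma 3.58.1 (R 4.3.3) on log2(FPKM + 1) with an intensity trend, on the libraries of the groups compared, for genes with a mean of at least 0.5 FPKM, and p-values were adjusted by Benjamini-Hochberg over all genes tested, with a threshold of 0.05. A fold change on this scale understates that of low genes. Diet was compared within genotype, genotype within diet, their interaction over the 18 libraries of a tissue, and visWAT with liver within each group. Single values were also tested by two-sided exact permutation over mice, with SciPy 1.17.1. For diet in liver, which the choice of genes used, ranges that did not overlap stood in for the threshold and no p is given. Each mouse gave both tissues, so libraries pair by mouse; deviations from the group means correlated between a mouse's tissues at -0.0552 to 0.217 (median 0.0445, over 0.1 in 3 of 18 mice), and the block was run as an alternative. No 2 libraries agreed within counting noise (lowest chi-square per gene 9.09). Alternatives were another pseudocount, other filters, the TPM scale, all 4 groups in 1 fit, edgeR 4.0.16 and DESeq2 1.42.0 on recovered reads, and leaving out mice. The fit was tested on simulated data. All members are described, and list genes were named by the size of their difference among those past the threshold, with some genes that the rule names not reported here. The members and lists were chosen with earlier results of these data known.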

Additional observations from a re-analysis of the deposited data

Results flagged for a closer look

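In 13 of 80 combinations of member and group, 1 mouse lay far from the rest of its group by Dixon's test. For independent, normally distributed values the rule flags about 1 of 20. These FPKM values are often near 0 with single high ones, and the flags share libraries, so the count cannot be set against that rate. The visWAT library of Mlkl Adi-KO HFD mouse 156 gave 4 of them: Fabp1 at 83.8 FPKM (the others 0 to 2.87), Fabp2 at 3.02 FPKM (0 to 0.194), Slc27a2 at 7.19 FPKM (0 to 0.124) and Slc27a5 at 7.80 FPKM (0.0250 to 0.179). That of WT HFD mouse 164 gave 3, with Fabp1 at 20.8 FPKM (0.0607 to 2.09), Fabp2 at 0.860 FPKM (0 to 0.0683) and Slc27a5 at 0.995 FPKM (0.0275 to 0.132). These are the visWAT libraries with the highest sums of hepatocyte markers, 779.6 and 106 FPKM.

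In visWAT of Mlkl Adi-KO NCD mouse 179, Slc27a2 was at 1.91 FPKM (0.157 to 0.377 in the others). In WT NCD mouse 182, Fabp5 in visWAT was at 217 FPKM (23.5 to 40.4), and in its liver Fabp1 was at 5485 FPKM (9689 to 10509) and Slc27a2 at 327 FPKM (523 to 562). The visWAT library of mouse 182 also had Plin2 at 346 FPKM, against 52.0 to 85.9 FPKM in the other NCD mice. In the liver of Mlkl Adi-KO HFD mouse 152, Fabp4 was at 3.31 FPKM (1.33 to 1.78) and Fabp7 at 2.17 FPKM (0.645 to 0.919), with a macrophage sum of 112 FPKM against 28.8 to 44.6 FPKM in the other 4.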

How the results depend on the processing

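With a filter at 1 FPKM, 0 members were called between diets in WT visWAT and 1 in Mlkl Adi-KO visWAT, since Fabp7 was then not tested. With all 4 groups in 1 fit 2 were called in WT visWAT, and 3 without mice 182 and 183, while leaving out single mice gave 1 to 2 in each genotype and DESeq2 called 3 in Mlkl Adi-KO visWAT. In liver, Fabp5 had a log2 difference between diets of -5.35 with a pseudocount of 0.1, -5.42 by edgeR and -5.43 by DESeq2 in WT mice (-4.82 to -4.70 leaving out single mice), and of -4.47 to -3.98 leaving out single Mlkl Adi-KO mice. Between tissues DESeq2 called 5 members in WT HFD and 4 in Mlkl Adi-KO HFD mice, giving no adjusted p for 4 in each, and leaving out single mice gave 8 to 10 in WT NCD and 8 to 9 in Mlkl Adi-KO HFD mice. The replicate block by mouse gave 8, 9, 10 and 9 members called between tissues and changed no other call. The sign turned for Fabp4 between diets in WT visWAT (0.24 on the TPM scale), for Fabp5 between tissues in WT NCD mice (0.13 on the TPM scale, 0.17 by edgeR), for Slc27a4 between tissues on the TPM scale (0.32, 0.68, 0.52 and 0.74) and for Fabp7 between tissues in Mlkl Adi-KO HFD mice (-0.035 with a pseudocount of 0.1). On the TPM scale the sign also turned for Slc27a1 (0.17) and Slc27a4 (0.27, and 0.077 without mice 182 and 183) between diets in WT visWAT, for Fabp5 between genotypes in HFD visWAT (-0.061) and for Slc27a2 between genotypes in HFD liver (-0.043). Leaving out single mice, it turned for Fabp4 between diets in Mlkl Adi-KO visWAT (-0.041 to 0.13), for the Fabp5 interaction in visWAT (-0.022 to 1.03), for Fabp7 between tissues in Mlkl Adi-KO HFD mice (-0.14 to 0.12), for Slc27a1 between diets in WT (-0.65 to 0.11) and Mlkl Adi-KO visWAT (-0.15 to 0.081), for Fabp5 between genotypes in HFD (-0.063 to 0.16) and NCD visWAT (-0.98 to 0.068) and for Slc27a2 between genotypes in HFD liver (-0.013 to 0.060). Where no value above shows it, the cause was not tested. Between tissues Slc27a4 in Mlkl Adi-KO HFD mice was not called by edgeR (adjusted p = 0.083) or DESeq2 (adjusted p = 0.052), and Fabp7 in WT HFD mice was called on the TPM scale (0.73, adjusted p = 0.0011). Fabp7 in visWAT and Fabp5 in HFD liver rest on few reads, and groups of 4 or 5 mice cannot give an exact p below 0.0159 between diets.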

Other observations

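The genes that varied most like Fabp5 among mice of the same group were listed by Pearson's r of log2(FPKM + 1), centred on the group means, over the 18 libraries of a tissue. In liver, over 11356 genes of at least 1 FPKM, they were Thap2 (r = 0.87), Hmga1 (0.83), Abhd14a (0.81), Tmem25 (0.79) and Fut11 (0.78), while Fabp1 had 0.28 and Cd36 -0.46. In visWAT, over 12067 genes, they included Hadha (0.96), Lrrc27 (0.96), Msra (0.96) and Pkm (0.96), where mouse 182 stands apart from the other mice, and Slc27a1 had 0.78, Slc27a4 0.61 and Fabp4 0.47. For Fabp4 in visWAT they were Pnpla2 (0.96), Ormdl3 (0.95), Etfa (0.94), Mgst1 (0.94) and Dbi (0.94), with Slc27a1 at 0.75 and Cd36 at 0.68. These are descriptions of libraries that share depth and tissue makeup, and they carry no test.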
